A study of Mus musculus with 16 samples.

Results

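The 10 genes described here encode antioxidant and NADPH-producing enzymes that are commonly listed as targets of the transcription factor NRF2. They are Nqo1, Hmox1, Gclc, Gclm, Srxn1, Txnrd1, Gsr, Cat, G6pdx and Pgd, chosen by an exact match of the gene symbol, and they are 10 of the 25803 genes in the joined count tables. All 10 passed the filter on low counts, as did 14488 genes in all. Counts come from bulk RNA sequencing of liver from male mice that had eaten a high-fat diet for 12 weeks. The mice were either controls (called wild type in the design text) or lacked Cpt1a in the liver (LKO). They were killed fasted (16 h without food) or refed (16 h without food, then 6 h with it). Each of these 4 groups had 4 libraries: fasted control (S40 to S43), fasted LKO (S44 to S47), refed control (S48 to S51) and refed LKO (S52 to S55). The labels give neither the age or strain of the mice nor the promoter or vector by which Cpt1a was deleted. They do not say whether each library is a separate animal, and if it is not, the p-values measure a spread that is partly technical. The fast, the diet and the sex are shared by all groups, so nothing here bears on lean, ad libitum fed or female animals.

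NRF2, the product of Nfe2l2, is held in the cytoplasm by KEAP1 and degraded. When oxidants or electrophiles modify KEAP1, NRF2 accumulates, enters the nucleus and, paired with a small MAF protein, binds antioxidant response elements near genes of glutathione, thioredoxin and NADPH metabolism. In liver this programme is known for defence against drugs and reactive lipids, and CPT1A, the enzyme deleted here, admits long-chain fatty acids to mitochondrial oxidation.

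Promoter windows of the RefSeq table (mouse build GRCm38.p6, 250 bases before and 50 after a start) were found for 7 of the 10 genes, in 10 windows. Hmox1, Gclc and Gsr had no window in that table. The windows were searched for the core of the antioxidant response element, TGACNNNGC, and on the other strand GCNNNGTCA. In the 250 bases before the start it occurred in 3 of the 7 genes searched, against 11.5% of all 27025 genes in the table, and over the whole window in 5 of the 7, against 14%. The sequences below are shown to let the reader see the element in these genes and are written 5′ to 3′ on the strand of the gene, with the match in capitals. No binding was measured, so each match is a description of the letters only.
Gclm, chr3:122245408-122245446, plus strand, match beginning 134 bases before the start: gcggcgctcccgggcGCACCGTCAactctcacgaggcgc
Txnrd1, chr10:82859099-82859137, plus strand, match beginning 92 bases before the start: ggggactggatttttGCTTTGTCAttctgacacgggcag
G6pdx, chrX:74428914-74428952, minus strand, match beginning 57 bases before the start: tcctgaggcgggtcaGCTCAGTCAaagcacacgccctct
Srxn1, chr2:152105542-152105570, plus strand, match beginning at base 29 after the start: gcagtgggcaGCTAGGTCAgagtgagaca
Pgd, chr4:149166061-149166089, minus strand, match beginning at base 4 after the start: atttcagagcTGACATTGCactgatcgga
The windows of Nqo1 and Cat held no match to these letters. Txnrd1 had 3 windows and Pgd 2, for different starts, and in each of these genes only window 2 held a match. The 7 genes had 10 windows, against 32851 windows for the 27025 genes of the table. The genes called in a comparison below include 2 with a printed match (Srxn1, after the start, and Txnrd1) and 2 without a window in the table (Gsr and Hmox1). Gclm, G6pdx and Pgd, which also have a printed match, were called in no comparison. A link between the match and the changes was not tested.

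Library totals ran from 14721601 to 24618230 counts, and no pair of replicates agreed closely enough to be the same library deposited again. Cpt1a, the deleted gene, stood at 487 ± 83.2 CPM (counts relative to the TMM-scaled library total, with that total set to 1 M) in fasted control and 101 ± 17.3 CPM in fasted LKO liver, and at 457 ± 137 and 54.2 ± 16.6 CPM in the refed groups (SD, n = 4). In both states the groups did not overlap (exact two-sided permutation p = 0.0286, the smallest that 4 against 4 libraries can give). Summed hepatocyte markers were lower in fasted LKO liver, at 59308 to 67756 CPM in its 4 libraries against 70324 to 78080 CPM in the 4 fasted controls, and overlapped when refed (60564 to 74309 against 68168 to 88693 CPM). In the fasted comparison 6 of these 8 markers had a negative estimate (median log2 −0.40), and Ttr and Serpina1c were called lower. When refed, only 1 of the 8 had a positive estimate (median log2 −0.31), and none was called. All 6 red cell markers had a negative estimate in the fasted comparison (median log2 −0.74), Alas2 being called lower. Sums of the red cell markers overlapped there, at 301 to 521 CPM in LKO and 383 to 1265 CPM in control liver. Summed lymphocyte markers were low but differed by genotype, at 3.4 to 5.91 CPM in fasted control and 12.2 to 32.1 CPM in fasted LKO liver, and at 2.55 to 4.79 and 15.3 to 37.3 CPM in the refed groups. Jchain was the only gene of that list called, higher in both states. All 4 tested genes of the list had a positive estimate, with a median log2 of 0.51 fasted and 1.28 refed. Bile duct markers had a positive estimate for 4 of 5 genes in the fasted comparison (median log2 0.75, none called). Their sums overlapped, at 33.5 to 80.8 CPM in LKO and 33.3 to 56.4 CPM in control liver. Other markers called higher in LKO liver were Dcn (stellate cell and fibroblast) when fasted, and Ly6c2 (recruited macrophage and neutrophil) and Clec4g (endothelial) when refed. Their lists did not move with them. In those comparisons 3 of 6, 3 of 6 and 2 of 5 tested genes had a positive estimate (median log2 −0.02, 0.04 and −0.05). No marker gene of the 8 cell type lists was at 0 throughout a group, and the part of these shifts in the genotype differences below was not tested. In bulk liver, fewer cells of a type and less RNA per cell cannot be told apart.

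The levels of the 10 genes differed widely. On a scale of CPM per kilobase of the deposited gene length, fasted control liver ranked them as Cat (936 ± 106), Gclc (52.1 ± 7.76), Gclm (35.7 ± 1.9), Srxn1 (26.3 ± 2.04), Hmox1 (22.6 ± 3.44), Gsr (20.4 ± 1.98), Txnrd1 (13.9 ± 1.11), Pgd (5.81 ± 0.25), Nqo1 (4.59 ± 0.93) and G6pdx (1.42 ± 0.277) (mean ± SD, n = 4). Catalase, which breaks down hydrogen peroxide in peroxisomes, therefore stood far above the rest. Neighbours in this order whose libraries overlapped were Srxn1 and Hmox1, Hmox1 and Gsr, and Pgd and Nqo1. In fasted LKO liver Srxn1 moved up to place 3, at 48.7 ± 10.6, its libraries overlapping those of Gclc (57.4 ± 18.4), and Gsr to place 4, at 34.2 ± 3.73, overlapping Gclm (31.5 ± 2.28). After refeeding Hmox1 took place 7 in both genotypes, at 17.6 ± 8.2 in control and 12.5 ± 0.88 in LKO liver. In refed control liver its libraries overlapped those of Txnrd1 at place 6 (18.9 ± 2.22).

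**Figure D1:**
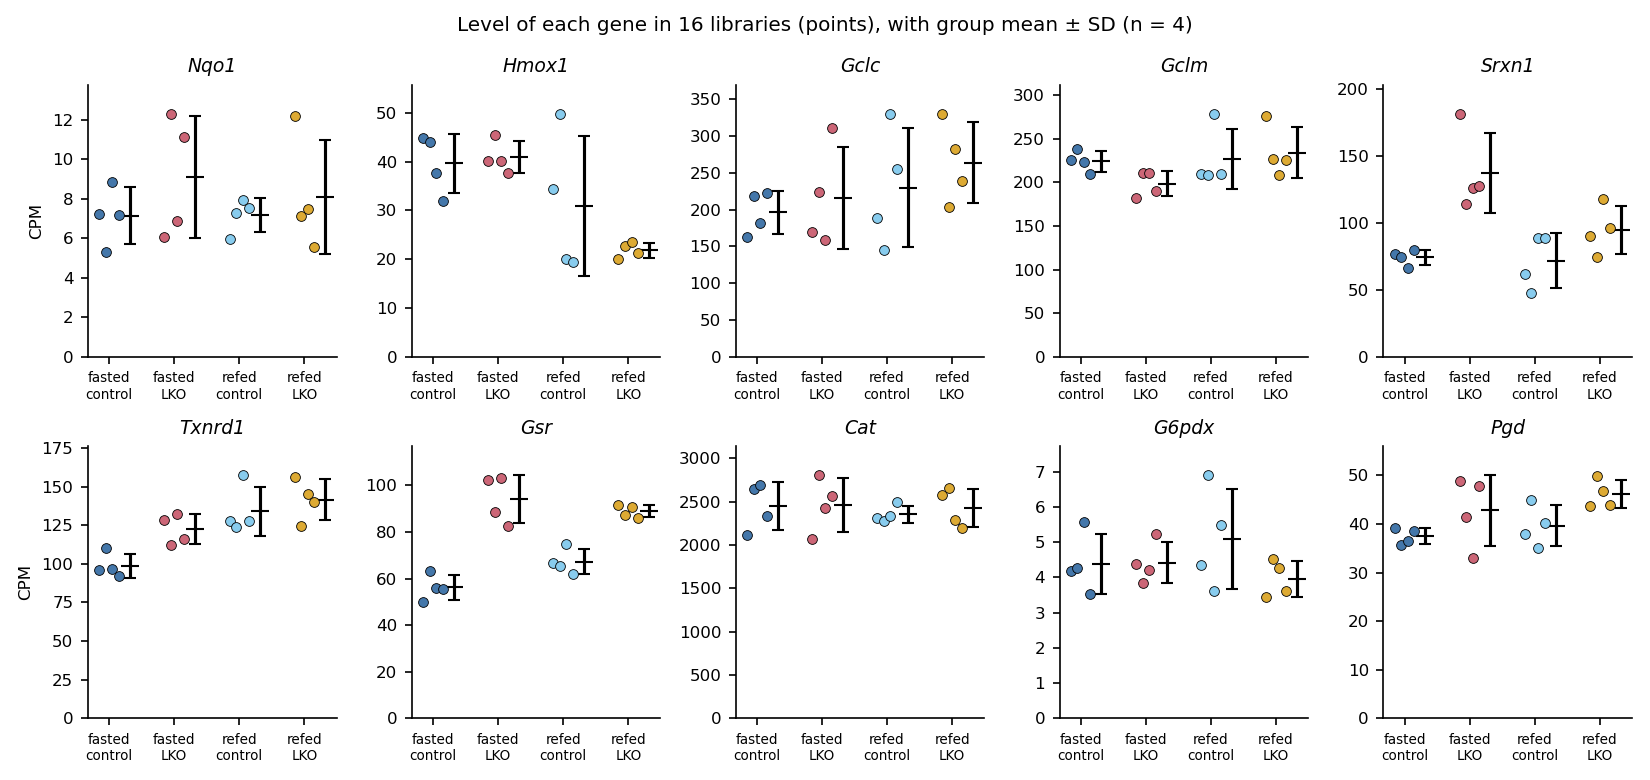
Level of each of the 10 genes in CPM (vertical axis, from 0) in the 16 libraries, by group on the horizontal axis; points are libraries and the bar beside them is the group mean ± SD (n = 4). The 4 fasted LKO points of Srxn1, Txnrd1 and Gsr all lie above the 4 fasted control points, while those of Cat (2065 to 2807 against 2111 to 2696 CPM) overlap.

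The first comparison asked how loss of Cpt1a changed these genes in the fasted state. Srxn1, Gsr and Txnrd1 were higher in LKO liver, by 1.85, 1.67 and 1.24 times, and the other 7 genes did not pass the test. The products of the genes that rose all work on oxidised thiols. Sulfiredoxin (Srxn1) repairs overoxidised peroxiredoxins, glutathione reductase (Gsr) regenerates reduced glutathione, and thioredoxin reductase 1 (Txnrd1) regenerates reduced thioredoxin, the last 2 at the expense of NADPH. Further genes of these systems, given below, were not called higher with them. Of 14 thioredoxin and peroxiredoxin genes 0 were called higher and 3 lower, and of 14 tested glutathione genes 0 and 1. Over all tested genes 5.75% were called higher and 6.48% lower. With 3 of 10 genes called at an adjusted p under 0.05 (edgeR quasi-likelihood test, Benjamini-Hochberg adjustment), the share in all tested genes was 12.2%, or 5.75% for genes called higher. The groups did not overlap for the same 3 genes, against 16.9% of all tested genes. The estimate was positive for 9 of the 10, with a median log2 fold change of 0.17, against 52.5% and 0.02 over all tested genes. Of those 9, Hmox1, Gclc, Cat and G6pdx could turn negative with 1 library left out. The lowest estimates of these genes were then −0.05, −0.09, −0.07 and −0.08. The members and the further lists were chosen with earlier results of these data known. Their shares, here and below, therefore describe the genes and are no independent comparison with the background.

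Srxn1 (ENSMUSG00000032802, chr2:151947436-151953296, mm39) read 76.4, 74.8, 66.1 and 79.6 CPM in fasted control liver (S40 to S43) and 181, 114, 126 and 128 CPM in fasted LKO liver (S44 to S47). Every LKO library thus lay above every control library, and S44 stood highest by a wide margin. Its difference on the log2 scale was 0.89 (SE 0.19, 95% interval 0.48 to 1.29, edgeR adjusted p = 0.00678). It was called with each of the 8 libraries left out in turn, between 0.72 and 0.96, with the highest adjusted p, 0.0278 by edgeR, without S44.

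Gsr (ENSMUSG00000031584, chr8:34142551-34188191, mm39) gave 50.1, 63.4, 55.8 and 55.6 CPM in fasted control and 102, 88.4, 103 and 82.5 CPM in fasted LKO liver. The lowest LKO library was above the highest control library by more than the whole range of the controls. LKO over control gave a log2 fold change of 0.74 (SE 0.09, 95% interval 0.55 to 0.94, edgeR adjusted p = 0.000238), and it was called in all 8 fits that left out a library.

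Txnrd1 (ENSMUSG00000020250, chr10:82669785-82733546, mm39) read 96.1, 110.0, 96.9 and 91.9 CPM in fasted control and 129, 112, 132 and 116 CPM in fasted LKO liver. The groups came close, since the lowest LKO library (S45, 112.2) was just above the highest control (S41, 110.0). The log2 fold change was 0.31 (SE 0.10, 95% interval 0.10 to 0.52), and the edgeR adjusted p of 0.0484 lay just under the threshold. The call was lost in 6 of the 8 fits that left out a library (S40, S42, S43, S44, S46 or S47), with an edgeR adjusted p of up to 0.129. It was also lost without the filter on low counts (0.0966) and when only the fasted libraries were fitted (0.0663).

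The genes of glutathione synthesis did not pass the test. Gclc (ENSMUSG00000032350, chr9:77661817-77701767, mm39), the catalytic subunit of glutamate-cysteine ligase, was at 196 ± 29.2 CPM in fasted control and 216 ± 69.4 CPM in fasted LKO liver (SD, n = 4). Its fasted LKO libraries spread from 159 to 311 CPM, which leaves a 95% interval of −0.37 to 0.65 for the log2 fold change. Gclm (ENSMUSG00000028124, chr3:122039206-122064381, mm39), the modifier subunit of the same enzyme, was the only member with a negative estimate. It gave 224 ± 12 CPM against 198 ± 14.4 CPM, a log2 fold change of −0.18 (SE 0.11, edgeR adjusted p = 0.313), with libraries of the groups overlapping.

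Nqo1 (ENSMUSG00000003849, chr8:108114857-108129838, mm39), a quinone reductase often used as a readout of NRF2, was low in this liver, at 7.13 ± 1.44 CPM in fasted control and 9.1 ± 3.1 CPM in fasted LKO liver. The fasted LKO libraries fell into 2 at 11.1 and 12.3 CPM and 2 at 6.04 and 6.89 CPM, the latter within the control range of 5.31 to 8.85 CPM. Its log2 fold change was 0.35 (SE 0.25, 95% interval −0.18 to 0.88, edgeR adjusted p = 0.408), so a rise of the size seen for Gsr lies inside the interval. Its counts were between 91 and 239 for each library, and the coefficient of variation in fasted LKO liver was 34%.

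Hmox1 (ENSMUSG00000005413, chr8:75820249-75827217, mm39), the inducible haem oxygenase, stood at 39.6 ± 6.02 and 40.9 ± 3.26 CPM in the fasted groups. Cat (ENSMUSG00000027187, chr2:103284194-103315505, mm39) stood at 2446 ± 276 and 2465 ± 310 CPM. The 95% intervals of their log2 fold changes were −0.42 to 0.51 for Hmox1 and −0.22 to 0.24 for Cat, so a rise as large as that of Gsr was outside both.

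G6pdx and Pgd encode the enzymes of the pentose phosphate pathway that make NADPH. Pgd (ENSMUSG00000028961, chr4:149234448-149251228, mm39) was at 37.5 ± 1.61 CPM in fasted control and 42.8 ± 7.26 CPM in fasted LKO liver, with 3 LKO libraries above all controls and S46, at 33.1 CPM, below them (log2 fold change 0.19, SE 0.11, edgeR adjusted p = 0.277). G6pdx (ENSMUSG00000031400, chrX:73453089-73472800, mm39) was at 4.38 ± 0.854 and 4.42 ± 0.582 CPM. Its counts are uncertain, because the gene overlaps Ikbkg on the opposite strand, which was counted at 34.5 to 70.7 CPM, and the use of strand in counting is not given in the sources used here. The 95% interval of the G6pdx difference was −0.41 to 0.43.

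**Figure D2:**
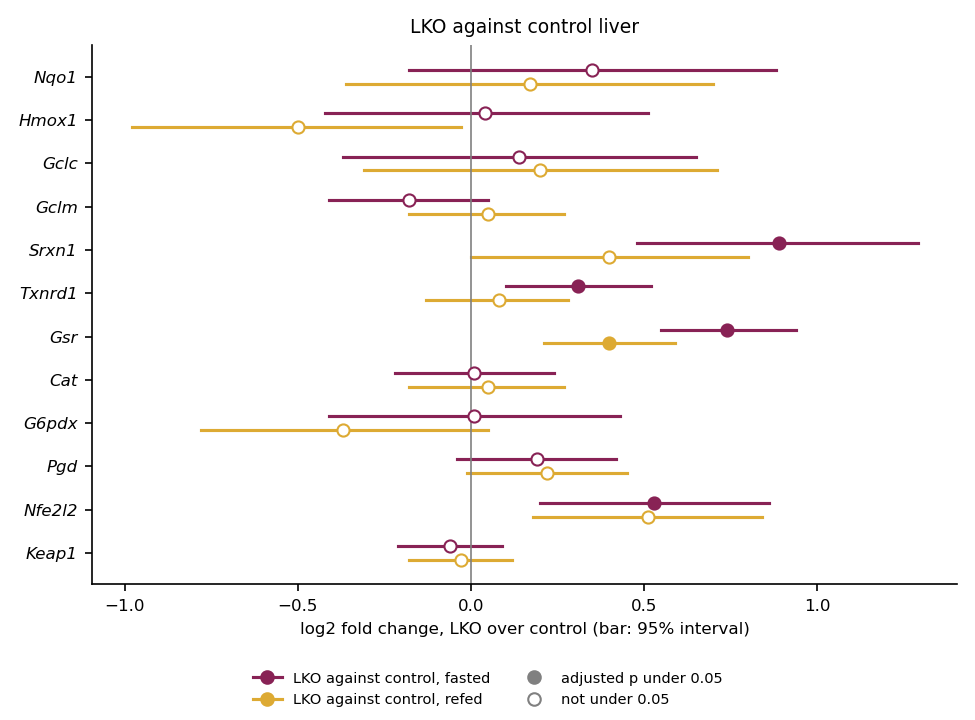
Log2 fold change of LKO over control liver (horizontal axis) for the 10 genes and for Nfe2l2 and Keap1 (rows), fasted in purple and refed in yellow; bars are 95% intervals, not adjusted for the number of genes, and filled points have an edgeR adjusted p under 0.05. Filled points are Srxn1 (0.89), Txnrd1 (0.31), Gsr (0.74) and Nfe2l2 (0.53) in the fasted state and Gsr alone (0.40) in the refed state.

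The same comparison after refeeding found 1 of the 10 genes changed. Gsr was higher in LKO liver by 1.32 times, and the share of genes called over the whole table was 3.63% (2.28% called higher). The groups did not overlap for 1 gene, again Gsr, against 11.7% of all tested genes. Estimates were positive for 8 of the 10, with a median log2 fold change of 0.12 beside −0.01 over all tested genes.

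Gsr was at 66.8, 65.4, 74.9 and 61.9 CPM in the refed control libraries S48 to S51 and at 91.8, 87.2, 90.8 and 86.2 CPM in the refed LKO libraries S52 to S55. The LKO libraries lay within a narrow band above all controls. This is a log2 fold change of 0.40 (SE 0.09, 95% interval 0.21 to 0.59, edgeR adjusted p = 0.0223). The call was lost in 5 of 8 fits that left out a library, at an edgeR adjusted p of 0.0667 without S48, 0.0514 without S49, 0.0515 without S51, 0.0571 without S54 and 0.0515 without S55, while the estimate stayed between 0.36 and 0.46. In the authors' deposited table the same difference has a log2 fold change of 0.40 and an adjusted p of 0.000338.

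Srxn1 read 61.7, 47.6, 88.9 and 89.0 CPM in refed control and 90.3, 74.5, 118 and 96.0 CPM in refed LKO liver. All but 1 of the LKO libraries exceeded every control, but S53 lay among them. The log2 fold change of 0.40 (SE 0.19) did not pass (edgeR adjusted p = 0.275). Txnrd1, at 128, 124, 157 and 128 CPM in refed control and 156, 124, 146 and 140 CPM in refed LKO liver, overlapped and differed by 0.08 (SE 0.10, edgeR adjusted p = 0.733).

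Hmox1 had the lowest estimate of the refed comparison. Its libraries were at 34.3, 49.8, 20 and 19.5 CPM in refed control and at 20, 22.6, 23.5 and 21.3 CPM in refed LKO liver. The controls were split, S48 and S49 being above and S50 and S51 at or below the LKO libraries. LKO over control came to −0.50 on the log2 scale (SE 0.22, edgeR adjusted p = 0.241), and without S49 it was −0.17. Markers of resident macrophages, a cell type that clears red cells and expresses Hmox1, summed to 520, 822, 324 and 215 CPM in the same control libraries and to 241, 285, 334 and 226 CPM in the LKO libraries. The library with the highest Hmox1, S49, thus also had the highest macrophage markers. All 8 of those markers had a negative estimate in this comparison (median log2 −0.76), none was called, and their part in the Hmox1 values was not tested.

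The remaining refed values stayed within overlapping groups. Gclc was at 230 ± 80.5 and 264 ± 54.6 CPM, Gclm at 227 ± 34.6 and 234 ± 29.2 CPM, and Cat at 2355 ± 96.8 and 2431 ± 221 CPM in control and LKO liver (SD, n = 4). Nqo1 was at 7.17 ± 0.86 and 8.09 ± 2.88 CPM, S52 alone (12.2 CPM) lying above the controls. Pgd, at 39.6 ± 4.22 and 46.1 ± 2.87 CPM, and G6pdx, at 5.09 ± 1.43 and 3.95 ± 0.521 CPM, had log2 fold changes of 0.22 (SE 0.11, edgeR adjusted p = 0.288) and −0.37 (SE 0.20, edgeR adjusted p = 0.342).

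Whether loss of Cpt1a acted differently in the 2 states was tested as a difference of the genotype effects, refed minus fasted. This was called for none of the 10 genes, beside 0.538% of all tested genes (78 by edgeR). At an unadjusted p under 0.05 there was 1 member, Gsr, against 2397 genes in all, and DESeq2 and limma-voom also called 0 of the 10. Estimates were negative for the 3 genes that had risen in the fasted state. They were −0.34 for Gsr (SE 0.13, 95% interval −0.61 to −0.07, edgeR adjusted p = 0.190), −0.49 for Srxn1 (SE 0.27, 95% interval −1.06 to 0.08) and −0.23 for Txnrd1 (SE 0.14, 95% interval −0.52 to 0.06). A smaller effect after refeeding was therefore not shown for any of them, and the intervals are wide.

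Refeeding itself was followed in each genotype. These comparisons use the same libraries as the genotype comparisons above, so their values are given side by side and not as separate support. In control liver Txnrd1 was called, at 1.36 times the fasted level, as 1 of 10 genes beside 15.4% of all tested genes. It was also the only member whose groups did not overlap, against 20.4% of all genes. The fasted control libraries were at 91.9 to 110.0 CPM and the refed ones at 124 to 157 CPM, a log2 fold change of 0.44 (SE 0.10, 95% interval 0.23 to 0.65, edgeR adjusted p = 0.00736). It was called in all 8 fits that left out a library, from 0.35 without S50 to 0.50. In LKO liver the refeeding estimate was 0.21 (SE 0.10, edgeR adjusted p = 0.153). The genotypes were not shown to differ in this effect, since the difference of effects given above was not called for Txnrd1.

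In LKO liver refeeding lowered Hmox1, the 1 gene of 10 called, beside 18.1% of all tested genes. Libraries were at 40.2, 45.4, 40.2 and 37.7 CPM fasted and at 20, 22.6, 23.5 and 21.3 CPM refed, so that the groups were far apart. They did not overlap, as for 20.6% of all tested genes. Refed over fasted came to −0.90 on the log2 scale (SE 0.22, 95% interval −1.38 to −0.43, edgeR adjusted p = 0.0103), about 0.534 times the fasted level, and it was called in all 8 fits that left out a library. In control liver the estimate was −0.36 (SE 0.22, edgeR adjusted p = 0.298). There S48 and S49 were at 34.3 and 49.8 CPM, inside or above the fasted range of 31.9 to 44.8 CPM, and S50 and S51 were at 20 and 19.5 CPM. Without S49 the control estimate was −0.69 and was called (edgeR adjusted p = 0.0177). The difference between genotypes in the effect of refeeding is the same contrast as the difference of the genotype effects, and for Hmox1 it did not pass (−0.55, SE 0.31, edgeR adjusted p = 0.407). Resident macrophage markers had negative estimates for 8 of 8 genes in the refeeding comparison of LKO liver (median log2 −0.40, none called), with sums of 312 to 445 CPM fasted and 226 to 334 CPM refed. Their part in the fall of Hmox1 was not tested.

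Srxn1 and Gsr showed refeeding values near the threshold. Srxn1 in LKO liver had a log2 fold change of −0.54 (SE 0.19, edgeR adjusted p = 0.0606), which was called by DESeq2 (−0.53, DESeq2 adjusted p = 0.0351) and in the authors' deposited table (−0.53, adjusted p = 0.026). It was also called without S54 (−0.66, edgeR adjusted p = 0.0349). That was the only 1 of the 8 fits with a library left out that called it. Gsr in control liver had 0.26 (SE 0.09, edgeR adjusted p = 0.0613), which was called when genes under a mean of 5 CPM were left out (0.25, edgeR adjusted p = 0.0440), without S41 (0.32, edgeR adjusted p = 0.0346) and without S51 (0.30, edgeR adjusted p = 0.0466). The call was absent in the other fits that left out a library, by DESeq2 (DESeq2 adjusted p = 0.051) and by limma-voom (limma-voom adjusted p = 0.056). It was also absent in the authors' deposited table (adjusted p = 0.0844). The other members had refeeding estimates between −0.16 and 0.29, and none of these was called.

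**Figure D3:**
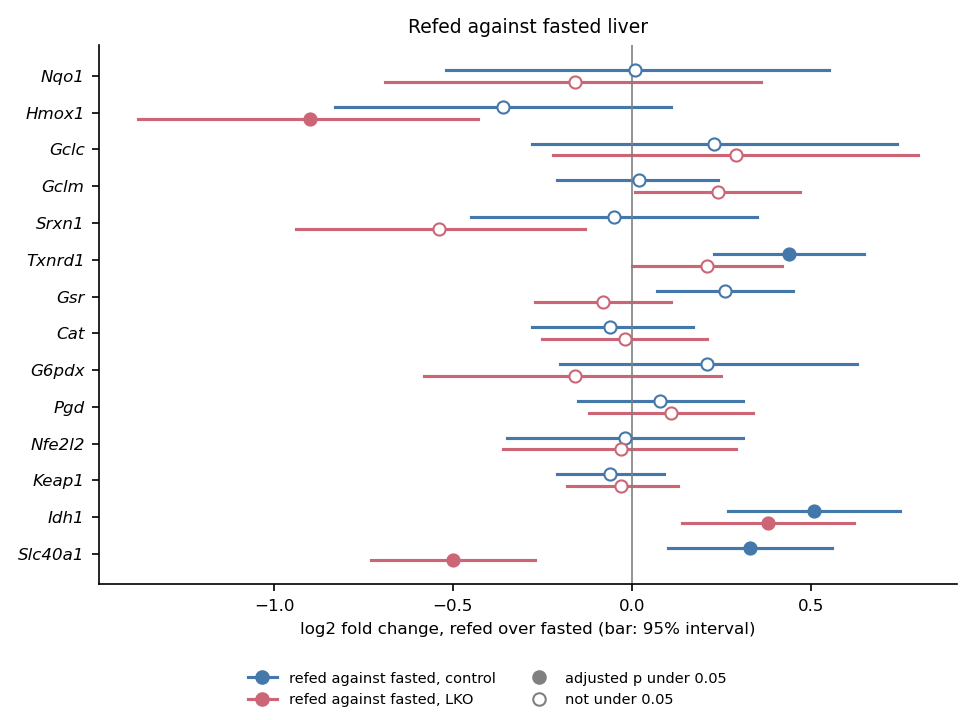
Log2 fold change of refed over fasted liver (horizontal axis) for the 10 genes and for Nfe2l2, Keap1, Idh1 and Slc40a1 (rows), control in blue and LKO in red; bars are 95% intervals, not adjusted for the number of genes, and filled points have an edgeR adjusted p under 0.05. Txnrd1 is filled in control (0.44), Hmox1 in LKO (−0.90), and Idh1 and Slc40a1 in both, Slc40a1 with opposite signs.

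The rank of a library within its group was compared across the members. In refed control liver S50 had the highest value of the group for 5 of the 10 genes, Nqo1, Gclc, Gclm, Txnrd1 and Gsr. In refed LKO liver S52 was the highest for the same 5 genes. Yet S50 was also the lowest of its group for 2 members, and S52 for 3. S49, the refed control library with the highest Hmox1, G6pdx and Pgd, was the lowest of its group for 5 members. The coefficient of variation within a group ran from 3.07% for Gsr in refed LKO liver to 46.5% for Hmox1 in refed control liver.

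**Figure D4:**
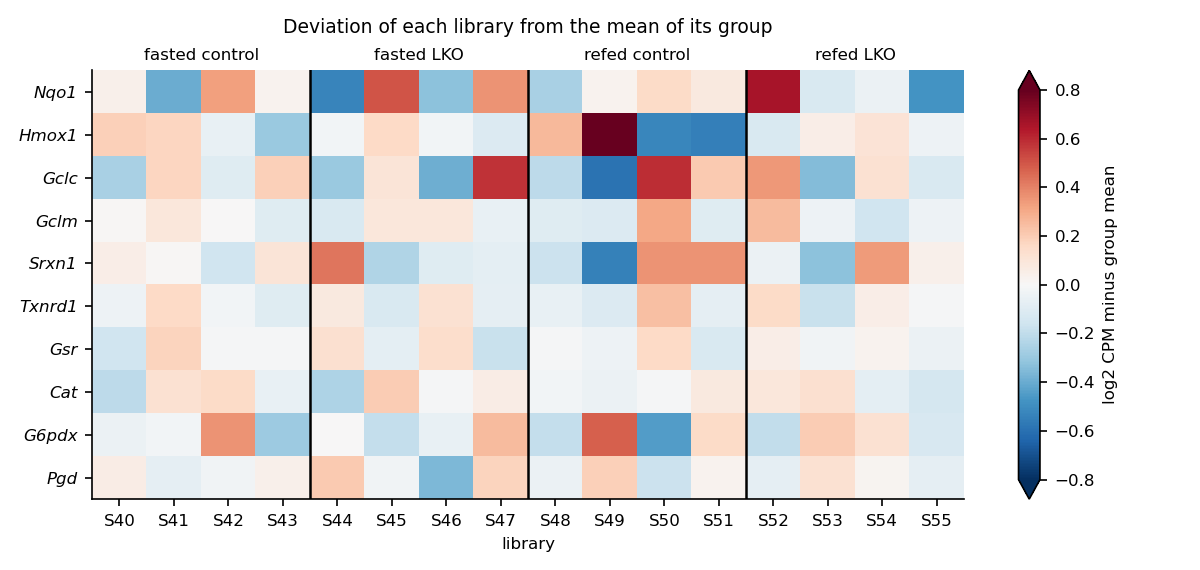
Log2 CPM of each library minus the mean of its group (colour, red above and blue below) for the 10 genes (rows) in the 16 libraries (columns), with lines between the groups. The colour scale ends at ±0.8. S50 and S52 are above their group means for Nqo1, Gclc, Gclm, Txnrd1 and Gsr, and Hmox1 varies most among the refed control libraries S48 to S51.

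The regulators were examined next. Nfe2l2 (ENSMUSG00000015839), which encodes NRF2, was at 46, 60.6, 47.3 and 70.8 CPM in fasted control and at 71.1, 82.6, 67.5 and 102 CPM in fasted LKO liver. The groups overlapped slightly, since S46 (67.5) was below S43 (70.8). The log2 fold change was 0.53 (SE 0.16, edgeR adjusted p = 0.0359), but leaving out 1 library kept the call in 3 of 8 fits, and it was lost without S40, S41, S42, S45 or S47 (edgeR adjusted p from 0.0549 without S41 to 0.113 without S40 or S42). In the refed state Nfe2l2 was at 51.7, 45.5, 61.6 and 62.8 CPM in control and 82.0, 67.1, 86.8 and 80.1 CPM in LKO liver, without overlap. The estimate, 0.51, was nearly the same (SE 0.16) but missed the threshold (edgeR adjusted p = 0.0775), whereas the authors' deposited table has it at an adjusted p of 0.00381. Keap1, the inhibitor of NRF2, was at 57.6 to 68.6 CPM over all 16 libraries, with log2 fold changes of −0.06 fasted (95% interval −0.21 to 0.09) and −0.03 refed (95% interval −0.18 to 0.12).

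Beyond the 10 members, 77 further genes of the pathway in 7 lists were followed, of which 75 were tested. In fasted liver 3 were called higher and 7 lower in LKO, which is 13.3% of those tested, close to the 12.2% of all genes, and their median log2 fold change was −0.04. In refed liver 1 was higher and 2 lower (4%, beside 3.63% of all genes). For the separate lists below, the shares over all tested genes were 5.75% higher and 6.48% lower in fasted LKO liver. In refed LKO liver they were 2.28% and 1.35%.

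Of 14 further thioredoxin and peroxiredoxin genes, 0 were called higher and 3 lower in fasted LKO liver (median log2 −0.19), beside 5.75% and 6.48% of all tested genes (median log2 0.02). Those were Txnrd2, the mitochondrial thioredoxin reductase (−0.32, SE 0.08, edgeR adjusted p = 0.0187), Msrb1, a methionine sulfoxide reductase (−0.32, SE 0.08, edgeR adjusted p = 0.0129), and Prdx2, a peroxiredoxin (−0.24, SE 0.08, edgeR adjusted p = 0.0465). Txnrd2 was at 52.4 ± 3.34 CPM in fasted control and 42 ± 3.17 CPM in fasted LKO liver (SD, n = 4), so the 2 thioredoxin reductases, cytosolic Txnrd1 and mitochondrial Txnrd2, differed from control in opposite directions. With 1 library left out, the Txnrd2 call was lost without S41 (edgeR adjusted p = 0.0501) and without S43 (0.058). That of Prdx2 was lost without S40, S42, S43, S44, S46 or S47, with an edgeR adjusted p of up to 0.126 (without S44). In refed liver Prdx1, a cytosolic peroxiredoxin and substrate of sulfiredoxin, was the only one of these 14 called, and it was higher (0.32, SE 0.08, edgeR adjusted p = 0.0288), at 862 ± 15.5 CPM in control and 1075 ± 79.5 CPM in LKO liver. Its call was lost without S48, S49, S50, S53 or S54, at an edgeR adjusted p between 0.0517 (S49) and 0.0898 (S48).

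Of 14 tested genes of glutathione synthesis and use, 1 was called in fasted LKO liver, and it was lower. This was Gpx1, the main cytosolic glutathione peroxidase (461 ± 46.3 against 318 ± 49.9 CPM, log2 fold change −0.53, SE 0.13, edgeR adjusted p = 0.0139). No gene of the 14 was called in refed liver, and the median was −0.04 fasted and 0.06 refed. The superoxide dismutases and their copper chaperone gave no call in either state among 4 genes.

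Of 14 NADPH supply genes, 2 were called, both lower in fasted LKO liver, and 0 in refed liver. Aldh1l1, a folate enzyme whose reaction forms NADPH, was at 1003 ± 167 CPM in fasted control and 527 ± 150 CPM in fasted LKO liver (−0.93, SE 0.24, edgeR adjusted p = 0.0176). That call was lost without S42 (0.0505), S44 (0.0588) or S46 (0.0518). Pgls, which acts between G6PDX and PGD in the pentose phosphate pathway, fell by 0.28 (SE 0.08, edgeR adjusted p = 0.0353), but in none of those 8 fits was it called (adjusted p from 0.0502 without S41 to 0.0899 without S40). Me1, malic enzyme, differed by 0.06 fasted and −0.06 refed (SE 0.21 each), and Idh1, the cytosolic isocitrate dehydrogenase, by 0.13 and 0.01 (SE 0.11 each). None of these 4 differences was called. Idh1 rose with refeeding in both genotypes, from 235 ± 31.2 to 334 ± 41.3 CPM in control (log2 fold change 0.51, SE 0.11, edgeR adjusted p = 0.00785) and from 258 ± 25.8 to 337 ± 27.3 CPM in LKO liver (0.38, SE 0.11, edgeR adjusted p = 0.0266). In LKO liver that call was lost without S44, S47, S52 or S53, at an edgeR adjusted p between 0.0631 (S44) and 0.0754 (S52).

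Of 6 haem and iron genes, 1 was called. Slc40a1, which encodes the iron exporter ferroportin, was at 84.4, 74.2, 71.9 and 90.3 CPM in fasted control and 93.8, 114, 84.1 and 81.6 CPM in fasted LKO liver. Refed libraries were at 97.2, 114, 101 and 91.5 CPM in control and at 71.0, 66.1, 62.6 and 64.3 CPM in LKO liver, so that the groups overlapped when fasted and lay apart when refed. The log2 fold change of LKO over control was 0.22 fasted (SE 0.11, edgeR adjusted p = 0.203) and −0.61 refed (SE 0.11, edgeR adjusted p = 0.00538). The difference between the states was −0.83 (SE 0.15, edgeR adjusted p = 0.032), the only one called among the 75 tested genes, but it was lost without S40, S41, S42, S44, S48, S50, S53, S54 or S55, at an edgeR adjusted p between 0.0507 (S54) and 0.0682 (S55). Refed over fasted was 0.33 in control (SE 0.11, edgeR adjusted p = 0.0477, lost without S40, S41, S42, S48, S49 or S50 at up to 0.131) and −0.50 in LKO liver (SE 0.11, edgeR adjusted p = 0.00434). Ferroportin is also abundant in the resident macrophages whose marker sums are given above for the refed groups, and their part in this difference was not tested.

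Among 14 other genes known as NRF2 targets, 2 were called higher and 1 lower in fasted LKO liver (median log2 0.29), beside 5.75% and 6.48% of all tested genes (median log2 0.02). Htatip2, an oxidoreductase, rose from 42.4 ± 7.06 to 79.5 ± 19.2 CPM (0.91, SE 0.14, edgeR adjusted p = 0.000863) and had an estimate of 0.50 when refed (SE 0.14, edgeR adjusted p = 0.0592). Entpd5, a nucleotide-hydrolysing enzyme of the endoplasmic reticulum, rose from 280 ± 17.4 to 432 ± 10.3 CPM (0.63, SE 0.15, edgeR adjusted p = 0.0106). Cyp2a5, a cytochrome P450, fell from 1009 ± 208 to 210 ± 88.1 CPM in fasted (−2.27, SE 0.28, edgeR adjusted p = 0.000238) and from 1099 ± 180 to 457 ± 153 CPM in refed LKO liver (−1.27, SE 0.27, edgeR adjusted p = 0.0173). The refed call of Cyp2a5 was lost without S53 (edgeR adjusted p = 0.0518), S54 (0.0519) or S55 (0.0649), and its counts may be shared with near-identical Cyp2a genes. In refed liver 0 of the 14 were called higher and 1, Cyp2a5, lower (median log2 0.26).

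**Figure D5:**
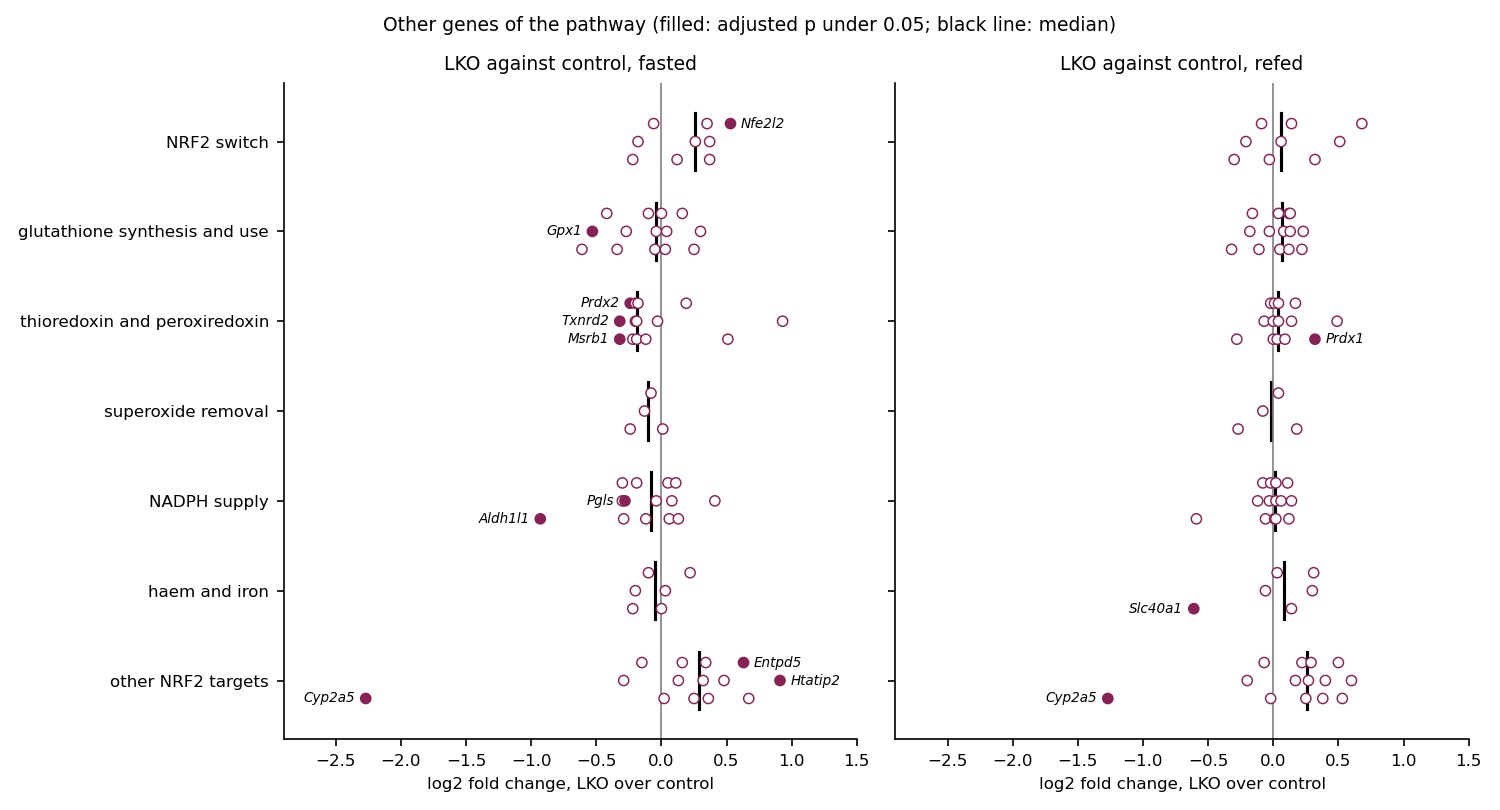
Log2 fold change of LKO over control (horizontal axis) for the 75 tested genes of the 7 further lists (rows), fasted on the left and refed on the right; each point is a gene, filled where the edgeR adjusted p is under 0.05, and the black line is the median of the list. Filled points lie on both sides of 0, from Cyp2a5 at −2.27 to Htatip2 at 0.91 in the fasted panel.

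The same 75 genes were followed through refeeding. In control liver 4 were called higher and 12 lower, 21.3% beside 15.4% of all tested genes, and in LKO liver 4 and 9, 17.3% beside 18.1%. In the list of regulators 2 of 9 were called lower in control and 3 of 9 in LKO liver, beside 7.65% and 8.78% of all tested genes. The fall was not particular to that list, since 4 of 14 thioredoxin and peroxiredoxin genes were called lower in control and 2 of 14 in LKO liver. The following regulators were named after their values were seen. Mafk, a small MAF partner of NRF2, fell by 0.99 in control (SE 0.18, edgeR adjusted p = 0.00253) and by 1.02 in LKO liver (SE 0.18, edgeR adjusted p = 0.00108). Sqstm1, an autophagy receptor that binds KEAP1, fell by 0.64 (SE 0.13, edgeR adjusted p = 0.00397) and by 0.87 (SE 0.13, edgeR adjusted p = 0.000288). Nfe2l1, a relative of NRF2, was called lower in LKO liver (−0.87, SE 0.11), where control had −0.32 (edgeR adjusted p = 0.0514). Nfe2l2 itself had refeeding estimates of −0.02 and −0.03 (SE 0.16 and 0.15).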

How the data were processed

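The members and the lists were chosen with earlier results of these data known. Libraries were made from bead-selected poly-A RNA with random hexamers and dUTP, per the labels' protocols. The submitters' processing notes name HISAT2 2.0.5 and mm39, while the counting tool and its use of strand are not given in the sources used here. The authors deposited raw counts per gene in 4 tables of 8 libraries, each library in 2 tables whose shared group heading gave its group. The tables were joined into 25803 genes, with 0 counts differing between tables, and 3148 genes absent from both tables of a library were set to 0 there. The authors also deposited log2 fold changes, adjusted p-values and gene lengths in bases, whose signs are given here as LKO over control and refed over fasted. Another 64 per-library columns stayed unused.

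The counts were tested with edgeR 4.0.16 (R 4.3.3). Genes passing filterByExpr (14488) were scaled by TMM (factors 0.941 to 1.07) and entered a glmQLFit model of the 4 groups (biological coefficient of variation 0.185). Contrasts were tested by glmQLFTest with Benjamini-Hochberg adjustment over all genes tested, called at an adjusted p under 0.05. SE is the size of the log2 fold change over the square root of F. Alternatives were upper quartile scaling, DESeq2 1.42.0, limma-voom (limma 3.58.1), no filter, a mean of at least 5 CPM, only the groups compared, and each library left out. All members, Nfe2l2, Keap1, Me1 and Idh1 are named. From each list, genes called in a genotype contrast with a mean of at least 5 CPM are named, at most 4 for each contrast.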

Additional observations from a re-analysis of the deposited data

Results flagged for a closer look

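Among 56 groups of 4 libraries examined (the 10 members and 4 further genes in 4 groups), 3 held a library whose gap to the nearest other exceeded Dixon's critical share of the group's range. Chance alone gives about 1 in 20. In refed control liver S50 stood above the others for Gclm (278.6 CPM) and for Txnrd1 (157.4 CPM). In fasted control liver S40 stood below the others for Me1 (67.5 CPM). The effect of LKO on Slc40a1 differed between the fasted and the refed state by −0.83 on the log2 scale (edgeR adjusted p = 0.032), as described above.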

How the results depend on the processing

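No paired analysis was possible because the count columns carry no replicate number. For the fold changes of the 10 members, over all contrasts and alternatives, 708 values kept their direction and side of the threshold, 38 reversed, 13 lost the call (Txnrd1 in fasted and Gsr in refed liver) and 6 gained it. Calls of the other pathway genes that were lost with a library left out stand beside their values above. Genes called numbered 1048 (without S44) to 1985 (without S45) for the fasted genotype comparison with a library left out, and 1249 to 2140 under the other settings. For the refed comparison they numbered 197 (without S48) to 517 with a library left out and 924 by DESeq2, for refeeding in control 1220 (without S40) to 2483, and for the difference between states 8 (without S48) to 282 (without S49), 467 by DESeq2 and 197 among genes of at least 5 CPM. Members called ranged from 0 to 1 in refed liver, the 0 without S48, S49, S51, S54 or S55. They ranged from 1 to 2 for refeeding in control with a library left out, and reached 2 with genes of at least 5 CPM. For refeeding in LKO liver they ranged from 1 to 2 with a library left out, with 2 by DESeq2. The promoter motif was in 5 genes over the whole window, against 3 before the start, of 7 genes searched. Upper quartile scaling split the fasted calls into 994 higher and 861 lower, against 833 and 939, the refeeding calls in LKO liver into 1239 and 1389, against 1344 and 1272, and the calls for the difference into 43 and 65, against 45 and 33. The cause of these shifts was not tested.

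All 38 reversals came from leaving out a library, in uncalled estimates near 0. The ranges in fasted liver were −0.05 to 0.11 for Hmox1, −0.09 to 0.26 for Gclc, −0.07 to 0.09 for Cat and −0.08 to 0.13 for G6pdx. In refed liver they were −0.10 to 0.32 for Nqo1 and −0.04 to 0.16 for Gclm. For refeeding in control they were −0.10 to 0.13 for Nqo1, −0.10 to 0.05 for Gclm and −0.17 to 0.11 for Srxn1, and in LKO liver −0.44 to 0.03 for Nqo1 and −0.10 to 0.06 for Cat. For the difference between states they were −0.45 to 0.02 for Nqo1, −0.11 to 0.29 for Gclc, −0.04 to 0.12 for Cat and −0.08 to 0.10 for Pgd. Nqo1 and G6pdx have the fewest counts, but in the fasted genotype comparison their SE (0.25 and 0.20) was like that of the deeply counted Gclc (0.24).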
